A study of Mus musculus with 11 samples.

Results

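The miR-30 family was examined in small RNA libraries from the cortex of mice 3 days after an experimental stroke or a sham operation. Its 8 members were fixed by name, out of 1907 miRNA names counted in every library. They comprised 5 guide arms (mmu-miR-30a-5p, mmu-miR-30b-5p, mmu-miR-30c-5p, mmu-miR-30d-5p and mmu-miR-30e-5p) and 3 passenger arms (mmu-miR-30a-3p, mmu-miR-30d-3p and mmu-miR-30e-3p). The guides were chosen by sequence name with earlier results of these data known, and the passenger arms were listed as the main ones, a matter of their level, so their levels beside other arms are given as a description.

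The series held 11 libraries from male Balb/cOlaHsd mice, labelled as 3 months old, and the question it addressed was which miRNAs differ in the cortex beside an infarct. In the 5 pMCAO libraries the left middle cerebral artery had been closed permanently with a thermocoagulator. In the 6 sham libraries the same artery had been exposed and lifted without being closed. Brains of both groups were perfused before dissection, the labels give the sham tissue as cortex and the pMCAO tissue as peri-ischemic cortex, and the deposited file names mark both groups as vehicle, while the labels name no drug.

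A mature miRNA guides the Argonaute protein to messenger RNAs that pair with its seed, bases 2 to 8 from the 5′ end, and the bound messenger RNA is then repressed. A hairpin yields 2 arms, of which the guide arm is usually kept and the passenger arm usually degraded. The miR-30 guides are abundant in many tissues, brain included, and their known targets include the autophagy gene Becn1, the transcription factor Snai1 and the neurotrophin Bdnf.

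Printed here are the mature sequences on which the family rests, with bases 2 to 8 in capitals, as RefSeq gives them for GRCm38.p6. Of the 8 members 5 matched an entry, and miR-30b-5p, miR-30d-5p and miR-30d-3p are named only. The first 3 lines are guide arms of the family, the fourth is miR-384-5p, which carries the same seed under another name, and the last 2 lines are passenger arms.
miR-30a-5p: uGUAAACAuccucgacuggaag
miR-30e-5p: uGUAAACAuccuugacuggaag
miR-30c-5p: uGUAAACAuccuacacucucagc
miR-384-5p: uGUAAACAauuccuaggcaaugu
miR-30a-3p: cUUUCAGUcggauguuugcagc
miR-30e-3p: cUUUCAGUcggauguuuacagc

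Among the 1623 names with a RefSeq sequence, the seed GUAAACA was found in 4, which were the 3 guides printed here and miR-384-5p. With positions counted from 1 at the 5′ end, miR-30a-5p and miR-30e-5p differed at 1 of 22 bases (C13U, the miR-30a-5p base first). Their passenger arms also differed at 1 of 22 bases (G18A, the miR-30a-3p base first). miR-30c-5p shared the first 12 bases of miR-30a-5p and differed at 5 of the 22 compared. miR-384-5p shared the first 8 bases and differed at 10 of 22. The mismatches and multiple placements allowed in mapping are not given in the sources used here, so the division of reads between miR-30a and miR-30e arms is uncertain. miR-30b-5p and miR-30d-5p, without an entry, could not be compared in this way. Whether they share reads with the other guides is therefore not known either.

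On GRCm38, the build the files call mm10, Mir30a lay at chr1:23272269-23272339 on the plus strand, where no other gene was annotated. Mir30c-2 followed on the same strand at chr1:23291701-23291784, 19361 bases further on, over an exon of the long noncoding gene Gm27028. Mir30c-1 (chr4:120769534-120769622) and Mir30e (chr4:120772606-120772697) lay 2983 bases apart on the minus strand, both inside an intron of Nfyc, which encodes a subunit of the transcription factor NF-Y. Mir384 lay at chrX:105344282-105344369 on the minus strand. The same miR-30c-5p sequence lies in 2 hairpins, Mir30c-1 and Mir30c-2, whose passenger arms have names of their own. Its single count does not tell them apart, and how reads that match both were counted is not given.

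Library totals ran from 1429037 to 2319810 counts in sham and from 744877 to 1411620 in pMCAO, and no 2 libraries of a group agreed within sampling noise. Nothing states that the libraries came from separate mice, so p-values measure the spread between these libraries. Levels are CPM (counts scaled to a common library size) after TMM scaling, which corrects each total for the composition of the library. In the edgeR quasi-likelihood test over the 479 miRNAs that passed the low-count filter, 34 differed at an adjusted p under 0.05 (7.1% of those tested), 21 higher and 13 lower in pMCAO. These counts depended on single libraries and on scaling: calls numbered 16 to 21 without sham replicate 2, 3, 4 or 6 or without pMCAO replicate 2 or 5, and 23 to 36 without any one of the others. The calls lower numbered 2 (without pMCAO replicate 5) to 13 in these fits, and upper-quartile scaling gave 23 higher and 4 lower. Neuronal miR-124-3p alone took 17.9% to 21.2% of the counts in sham and 16.8% to 19.3% in pMCAO.

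The miR-30 members together took a smaller share of the counts after pMCAO. Their share was lowest at 4.94%, 5.23% in the median and highest at 6.07% in the 6 sham libraries. In pMCAO replicates 1 to 5 it was 3.92%, 4.39%, 4.52%, 4.91% and 4.59%. All 5 pMCAO libraries lay below all 6 sham libraries, with group means of 5.31% ± 0.405 (SD, n = 6) and 4.47% ± 0.363 (SD, n = 5). Nearly all of this was guide arms, since the 3 passenger arms held 0.349% to 0.648% of the members' counts in sham and 0.363% to 0.736% in pMCAO.

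**Figure D1:**
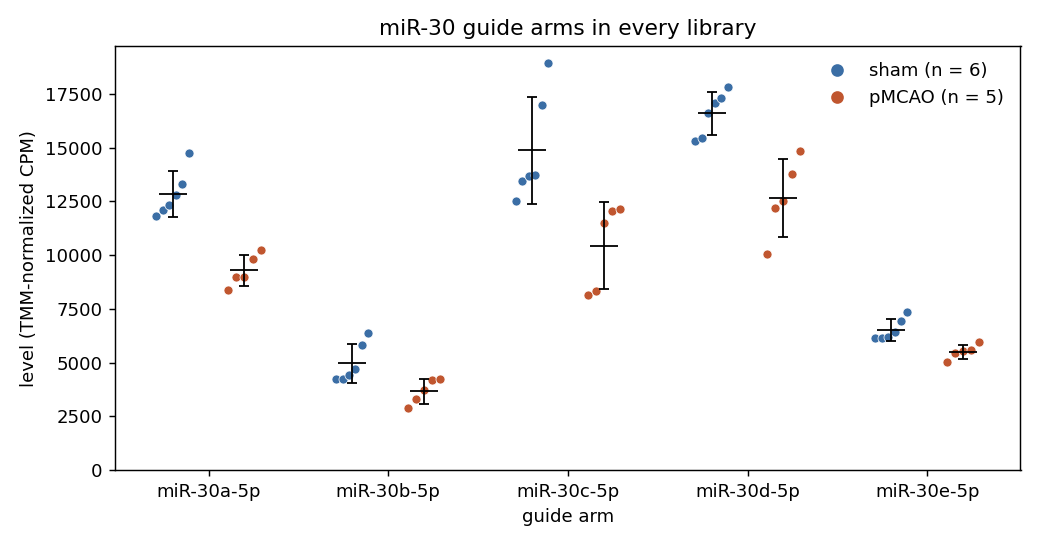
TMM-scaled level (CPM) of each of the 5 miR-30 guide arms in each library, with points for single libraries and the mean and SD of the 6 sham and 5 pMCAO libraries. miR-30a-5p, miR-30c-5p, miR-30d-5p and miR-30e-5p lay lower in every pMCAO library than in any sham library, and miR-30b-5p overlapped.

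All 5 guide arms had lower mean levels in pMCAO, with log2 fold changes from -0.51 to -0.25, and 2 of them, miR-30a-5p and miR-30d-5p, passed the test over all miRNAs. Among all miRNAs tested, 2.71% were called lower, a share that moved with the omitted library as given earlier. For 4 of the 5 guides every pMCAO library lay below every sham library, an arrangement seen in 3.34% of all miRNAs tested, and groups that did not overlap in either direction made up 7.52%. The median log2 fold change of the 7 members that passed the filter was -0.39 and that of all 479 miRNAs was 0.00147. With bulk tissue, fewer cells of a type and less RNA per cell cannot be told apart.

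miR-30a-5p, the guide of the Mir30a hairpin on chromosome 1, fell most clearly relative to its error. In sham its lowest, median and highest levels were 11825, 12575 and 14755 CPM. In pMCAO replicates 1 to 5 it stood at 8390, 9006, 8994, 9819 and 10249 CPM. The highest pMCAO library was thus under the lowest sham library. The mean went from 12851 ± 1071 (SD, n = 6) to 9292 ± 738 (SD, n = 5), a fall of 27.7% (95% interval 17.05% to 37.0%), with a log2 fold change of -0.47 (SE 0.09, edgeR adjusted p = 0.00655). By p-value it was number 13 of the 479 miRNAs. Without TMM, on library totals alone, the adjusted p was 0.0522.

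miR-30d-5p, the most abundant guide, was also lower in pMCAO. Its sham levels were 15300 CPM at the lowest, 16844 in the median and 17815 at the highest. The pMCAO replicates 1 to 5 held 12504, 12199, 13761, 14854 and 10053 CPM, with replicate 5 far under the others and none as high as a sham library. Means were 16596 ± 1017 (SD, n = 6) and 12674 ± 1807 (SD, n = 5), a fall of 23.6% (95% interval 10.8% to 34.6%) and a log2 fold change of -0.39 (SE 0.10, edgeR adjusted p = 0.0412). This call rested on single libraries: of the 11 fits with a single library omitted, only those without pMCAO replicate 3 or 4 (2 fits) kept it, and without pMCAO replicate 5 the log2 fold change was -0.30. With the replicate number as a block it was -0.42 (edgeR adjusted p = 0.0986).

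miR-30c-5p, whose sequence lies in hairpins on chromosomes 1 and 4, had the largest fold difference of the guides and missed the threshold. Its sham levels were 12515, 13691 and 18933 CPM as lowest, median and highest. Levels in pMCAO replicates 1 to 5 were 8158, 8316, 11495, 12057 and 12141 CPM. Here the pMCAO libraries fell apart into replicates 1 and 2 at the low end and the other 3 just under the sham range, with no overlap. The log2 fold change was -0.51 (SE 0.15, 95% interval -0.83 to -0.20, edgeR adjusted p = 0.0505). It passed the threshold in DESeq2 (-0.53, adjusted p = 0.0274), did not in any of the 11 fits with a single library omitted (edgeR adjusted p = 0.0526 to 0.146), and was -0.34 on library totals alone (edgeR adjusted p = 0.143).

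miR-30b-5p was the least abundant guide and the only one whose groups overlapped. The sham libraries had 4222 CPM at the lowest, 4572 in the median and 6389 at the highest. The pMCAO replicates 1 to 5 had 2883, 3315, 4212, 4225 and 3712 CPM, so that replicate 4 reached just into the sham range. Its log2 fold change was -0.44 (SE 0.14, 95% interval -0.75 to -0.13, edgeR adjusted p = 0.0862), and -0.26 on library totals alone.

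miR-30e-5p, which differs from miR-30a-5p at 1 base as printed earlier, showed the smallest difference of the 5 guides. Its sham levels were 6141, 6311 and 7361 CPM as lowest, median and highest. Those of pMCAO replicates 1 to 5 were 5471, 5530, 5014, 5951 and 5581 CPM. The groups stood close but apart, and the log2 fold change of -0.25 (SE 0.09, 95% interval -0.44 to -0.05) did not pass the test (edgeR adjusted p = 0.117). On library totals alone it shrank to -0.08.

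**Figure D2:**
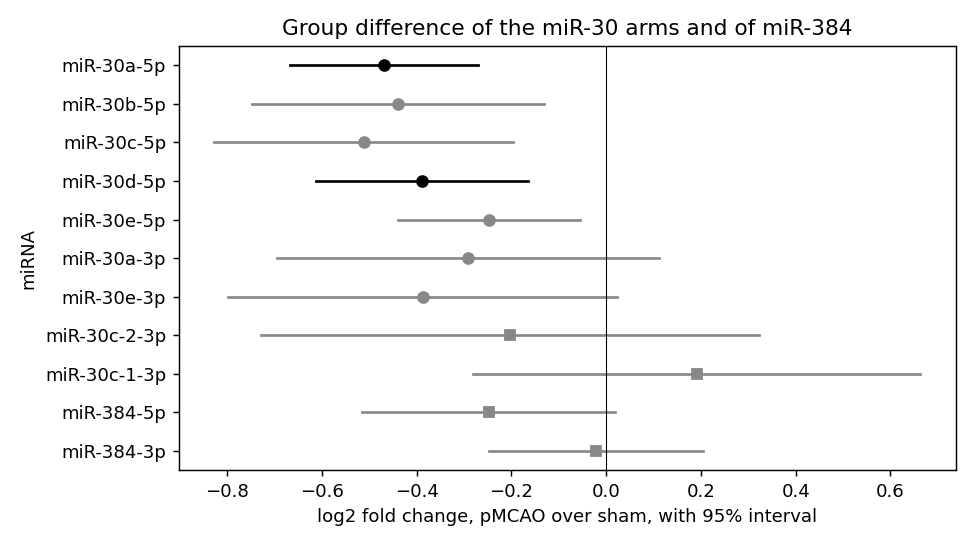
Log2 fold change, pMCAO against sham, with its 95% interval for miR-30 arms and both miR-384 arms, from the edgeR fit over 479 miRNAs. Circles are members, squares are other arms and miR-384, black points have an adjusted p under 0.05 and grey points do not: the 5 guides lie between -0.51 and -0.25, and the black points are miR-30a-5p and miR-30d-5p.

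The guides were set beside the other abundant miRNAs, with a lower cut of 1000 CPM chosen after the values were seen and no upper limit. At or above that mean level were 98 miRNAs, the 5 guides included. Of the 93 others, 70 (75.3%) had a log2 fold change below 0, the median was -0.12 and 6 (6.45%) were called lower. In 5 of the 93 every pMCAO library lay below every sham library. The median over the guides was -0.44. A value below 0 was therefore common among abundant miRNAs in these libraries, and the guides' values were larger in size than the median of that stratum. They were not its extreme, since the lowest value among the 93 others was -0.92.

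**Figure D3:**
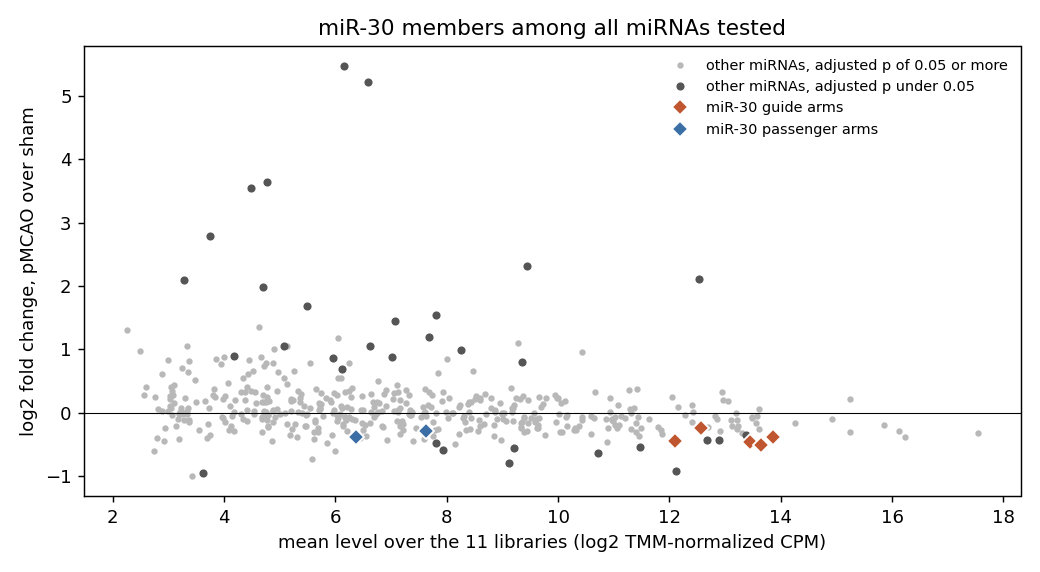
Log2 fold change, pMCAO against sham, of the 479 miRNAs tested against their mean level (CPM, log axis), with the 7 miR-30 members that passed the filter marked. The 5 guides lie at the abundant end and below 0, and the passenger arms miR-30a-3p and miR-30e-3p lie further to the left, also below 0.

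The miRNAs outside the family whose levels followed the guides most closely were also listed. All miR-30 names and both miR-384 arms were left out beforehand, which left 243 candidates with a mean of at least 100 CPM. Likeness was measured as the SD over the 11 libraries of the log2 level minus the mean log2 level of the 5 guides. It was smallest for miR-411-5p (0.117), miR-23b-3p (0.122) and miR-3068-5p (0.129). The guides themselves, which are part of that mean, had values from 0.10 for miR-30a-5p to 0.165 for miR-30e-5p. Of the 3, miR-23b-3p was called lower, from 11744 to 9182 CPM in the group means (log2 fold change -0.35, edgeR adjusted p = 0.0356). miR-411-5p had a log2 fold change of -0.31 (edgeR adjusted p = 0.0929) and miR-3068-5p one of -0.26 (edgeR adjusted p = 0.210). Likeness was taken over the libraries of both groups, so the group difference was part of the choice. The lower levels of these 3 in pMCAO are therefore a description and no separate result.

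Within the family, the guides kept nearly the same order in every library. By the sham mean the order was miR-30d-5p, miR-30c-5p, miR-30a-5p, miR-30e-5p and miR-30b-5p, and in all 1907 names by mean CPM they ranked 9, 10, 17, 36 and 43. miR-30d-5p was the highest guide in 9 of the 11 libraries, and miR-30c-5p was the highest in sham replicate 5 and pMCAO replicate 5. miR-30c-5p was above miR-30a-5p in 9 of 11 libraries, with miR-30a-5p higher in pMCAO replicates 1 and 2. The first 3 guides were above miR-30e-5p in all 11 libraries, and miR-30e-5p was above miR-30b-5p in all 11. Neighbouring levels of miR-30d-5p, miR-30c-5p and miR-30a-5p therefore crossed between libraries, whereas the step to miR-30e-5p and the step to miR-30b-5p did not. Levels of different miRNAs also carry ligation and sequencing bias, which was not measured here.

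The 2 guides that tracked each other best were miR-30b-5p and miR-30c-5p. The SD of the log2 ratio of the pair over the 11 libraries was 0.104, and the other pairs had SDs from 0.185 to 0.292, the last being miR-30c-5p against miR-30e-5p. These 2 guides also varied most among sham libraries, with coefficients of variation of 18.4% for miR-30b-5p and 16.8% for miR-30c-5p against 8.33% for miR-30a-5p, 7.71% for miR-30e-5p and 6.13% for miR-30d-5p. Both were highest in sham replicates 5 and 2. All ratios shared a library and its depth, so they are given as a description.

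The make-up of the guide pool overlapped between the groups. miR-30d-5p held 29.8% ± 1.32 of the guide counts (SD, n = 6) in the sham libraries and 30.5% ± 3.68 (SD, n = 5) after pMCAO, miR-30c-5p 26.5% ± 2.08 and 24.9% ± 3.18, and miR-30a-5p 23.1% ± 1.45 and 22.4% ± 1.65. The share of miR-30e-5p was 11.8% ± 1.36 in sham (10.5% to 14.4%) and 13.3% ± 1.27 in pMCAO (11.5% to 14.6%). That of miR-30b-5p was 8.85% ± 0.829 and 8.79% ± 0.717. The overlap held for each of the 5 guides. One library stood apart: in pMCAO replicate 5, miR-30d-5p made up 24.1% of the guide counts, against 31.7% to 33.4% in the other pMCAO libraries.

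**Figure D4:**
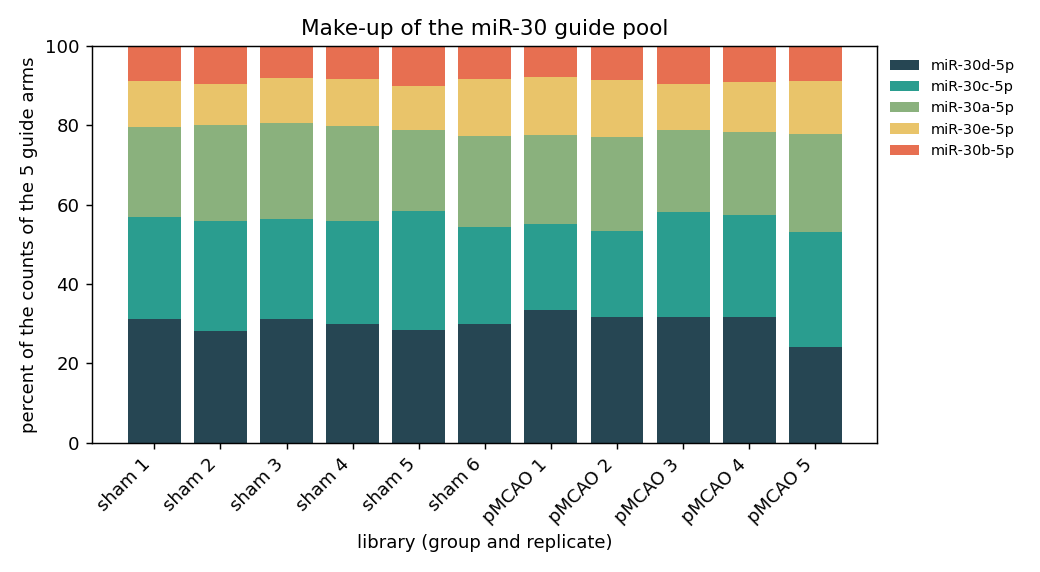
Percent of the counts of the 5 guide arms held by each guide, one stacked bar for each of the 6 sham and 5 pMCAO libraries. The shares overlap between groups for every guide, and pMCAO replicate 5 has the smallest miR-30d-5p share, 24.1%.

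The passenger arms were counted far less often than their guides. In sham, miR-30a-3p had 146 CPM at the lowest, 228 in the median and 252 at the highest. In pMCAO replicates 1 to 5 it had 185, 188, 229.5, 171 and 105 CPM. The groups overlapped widely, with replicate 5 lowest in both. The log2 fold change was -0.29 (SE 0.19, 95% interval -0.69 to 0.11, edgeR adjusted p = 0.406). It was -0.14 without pMCAO replicate 5 and -0.12 on library totals alone.

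miR-30e-3p gave the same picture at a lower level. Its sham values were 70.6, 97.4 and 112 CPM as lowest, median and highest. Those of pMCAO replicates 1 to 5 were 70.8, 66.2, 88.8, 82.6 and 44.6 CPM, with replicate 5 again lowest and 2 of the 5 under the sham range. The log2 fold change was -0.39 (SE 0.19, 95% interval -0.80 to 0.02, edgeR adjusted p = 0.235). Without pMCAO replicate 5 it was -0.24, and on library totals alone -0.22. The intervals of both passenger arms reached from falls larger than those of their guides to above 0.

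miR-30d-3p hardly appeared. Sham replicates 1 to 6 held 7, 6, 6, 4, 5 and 1 raw counts and pMCAO replicates 1 to 5 held 1, 0, 5, 1 and 3, which left it under the filter and outside the test over 479 miRNAs. The count of 0 in pMCAO replicate 2 allows up to 3 counts, or 4.03 CPM without TMM scaling. DESeq2, run without the filter, gave a log2 fold change of -0.87 (adjusted p = 0.616), and edgeR without it one of -0.84 (adjusted p = 0.526). The name "main passenger arm" did not hold for it in these libraries: its 39 counts over all 11 libraries were fewer than those of miR-30c-2-3p (431), miR-30c-1-3p (195) and miR-30b-3p (76), which were not members.

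The other names of the family were low and gave no call. miR-30c-1-3p, at 8 to 27 counts a library, had a log2 fold change of 0.19 (95% interval -0.28 to 0.66, edgeR adjusted p = 0.676). miR-30c-2-3p, at 20 to 55 counts, had one of -0.20 (95% interval -0.73 to 0.32, edgeR adjusted p = 0.698). miR-30b-3p did not pass the filter, and miR-30f, annotated on the strand opposite miR-30e-3p, had 2 counts in sham replicate 5, 1 in pMCAO replicate 4 and 0 in the other 9 libraries.

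The ratio of the arms was compared within each library, which takes library scaling out of the measure. For miR-30a the log2 ratio of 5p to 3p counts (0.5 added to each) averaged 5.92 ± 0.28 in sham (SD, n = 6; 5.68 to 6.45) and 5.76 ± 0.51 in pMCAO (SD, n = 5; 5.29 to 6.60). The difference was -0.16 (95% interval -0.63 to 0.31, limma adjusted p = 0.826). For miR-30e the averages were 6.16 ± 0.30 (SD, n = 6; 5.78 to 6.61) and 6.31 ± 0.42 (SD, n = 5; 5.81 to 6.96). Its difference of 0.15 (95% interval -0.28 to 0.59, limma adjusted p = 0.819) turned to -0.0074 without pMCAO replicate 5. Groups overlapped for both hairpins, and replicate 5 had the highest ratio in each group for both.

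Over all 143 hairpins with both arms past the filter, limma called 0 ratios at an adjusted p under 0.05 (0% of those tested), with 9 at an unadjusted p under 0.05. An edgeR fit with the other arm as offset also called 0, with 11 at an unadjusted p under 0.05. The 3p arm made up 1.13% to 1.92% of the miR-30a counts in sham and 1.02% to 2.49% in pMCAO. For miR-30e it made up 1.01% to 1.79% in sham and 0.793% to 1.74% in pMCAO. The guide was thus the dominant arm of these hairpins in every library.

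**Figure D5:**
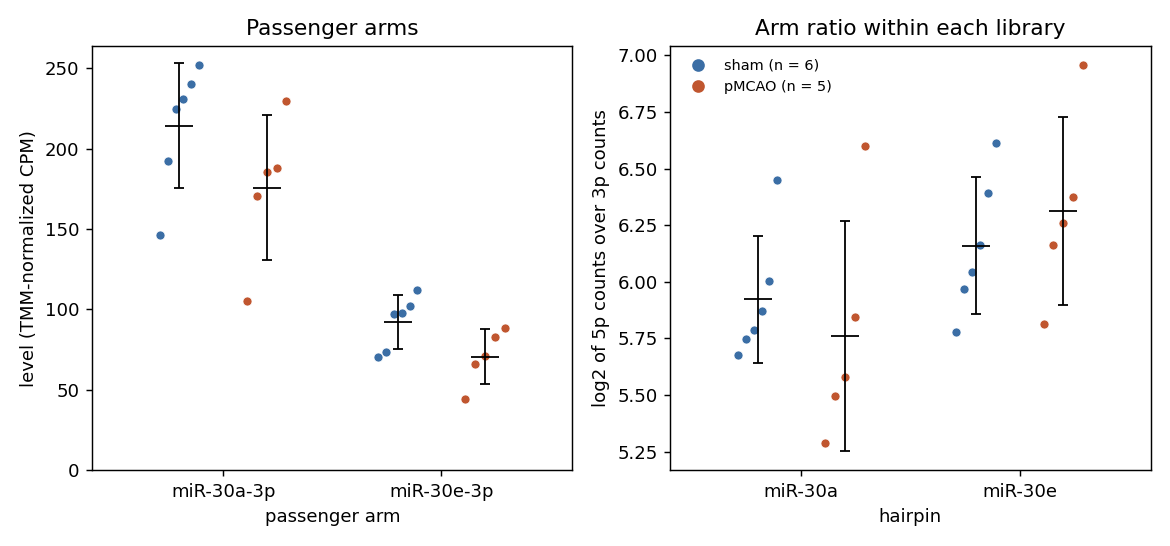
Passenger arms by library: levels of the 3p arms (CPM) and log2 ratio of 5p to 3p counts for the miR-30 hairpins, with points for the 6 sham and 5 pMCAO libraries and the mean and SD of each group. Levels and ratios overlap between the groups, and the highest miR-30a and miR-30e ratios come from replicate 5 of each group.

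miR-384-5p, a seed partner outside the family name, was set beside the guides. In sham it had 592 CPM at the lowest, 675 in the median and 859.9 at the highest. In pMCAO replicates 1 to 5 it had 593, 482, 565, 592 and 684 CPM, which overlapped the sham range. The log2 fold change was -0.25 (95% interval -0.51 to 0.02, edgeR adjusted p = 0.239). Its passenger arm miR-384-3p gave -0.02 (95% interval -0.25 to 0.20, edgeR adjusted p = 0.971). The difference between the guides and miR-384-5p was not tested.

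Several cell type markers also differed between the groups, and their part in the miR-30 differences was not tested. Of 7 neuronal miRNAs, 1 was called lower, miR-132-3p (log2 fold change -0.43, edgeR adjusted p = 0.0412). Their log2 fold changes went both ways: miR-138-5p (0.21) and miR-129-5p (0.32) were above 0 and the others below. The summed neuronal level was 336912 to 426161 CPM in sham and 286593 to 336726 CPM in pMCAO. Much of that sum was miR-124-3p, with group means of 209633 and 168488 CPM. It narrowly missed the threshold (log2 fold change -0.32, edgeR adjusted p = 0.0523), and every pMCAO library lay below every sham library. Of 3 oligodendrocyte miRNAs, 1 was called lower, with sums of 4283 to 5239 and 2528 to 4951 CPM. Of 4 leukocyte miRNAs, 3 were called higher, with sums of 2419.9 to 3715 CPM in sham and 3146 to 6358 CPM in pMCAO. The fourth, miR-150-5p, went the other way without a call (log2 fold change -0.25), with group means of 2733 CPM in sham and 2298 CPM in pMCAO. Of 4 smooth muscle and fibroblast miRNAs, 1 was called higher (6824 to 11469 against 6328 to 8687 CPM). Their log2 fold changes also went both ways: miR-214-3p (1.68, the call) and miR-199a-3p (1.06) were above 0. The more abundant miR-145a-5p (-0.22) and miR-143-3p (-0.04) were below it. Neither of 2 endothelial miRNAs was called (9184 to 13005 against 9510.2 to 13642 CPM), nor either of the 2 erythrocyte miRNAs tested out of 3 (48.6 to 5327 against 636 to 4696 CPM). No marker of these lists was at 0 in all libraries.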

How the data were processed

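Small RNA enriched from cortex was made into Ion Torrent libraries. Reads between 20 and 30 bp long were aligned by the authors to mm10 with Bowtie and assigned to miRBase miRNAs with HTSeq, and raw counts per miRNA were deposited for each of the 11 libraries. The versions of Bowtie and HTSeq are not given in the sources used here. Groups came from the sample labels. In the present work miRNAs were filtered with filterByExpr (minimum count 10, minimum total 15), scaled by TMM and compared with the quasi-likelihood test of edgeR 4.0.16 in R 4.3.3, with Benjamini-Hochberg adjustment over the 479 miRNAs tested and a threshold of 0.05. Levels with an SD are TMM-scaled CPM. Arm ratios were compared with limma 3.58.1. DESeq2 (the study's tool, its version there not given; 1.42.0 here) and other scalings, filters, a replicate block, thinning to equal depth and leaving out each library were alternatives. The edgeR and limma fits were tested on simulated counts with known changes, and the DESeq2 fit on simulated counts with none. The members and lists were chosen with earlier results of these data known. Named miRNAs were the members, the other miR-30 names, the carriers of the same seed, the 3 miRNAs outside these closest to the guides and the cell type markers. The replicate numbers were not used as pairs in the main fit, and nothing states whether they mark pairs. The limit that a count of 0 allows (3 counts) covers counting error only. The lowest count of a guide arm in any library was 2565, so counting error was small for guides and large for miR-30d-3p.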

Additional observations from a re-analysis of the deposited data

Results flagged for a closer look

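Of 34 groups of values examined, 4 had 1 library far from the others by Dixon's criterion, which chance alone meets in about 1 in 20 groups, or 1.7 of 34. In sham replicate 6 the miR-30d-3p level, as log2(CPM + 1), was 0.671, against 1.79 to 2.44 in the other sham libraries, and this value rests on 1 count. The log2 ratio of miR-30d-5p to miR-30d-3p was 14.1 in the same library, against 11.8 to 12.4, and rests on the same count. In pMCAO replicate 5, miR-30d-5p held 24.1% of the guide counts, against 31.7% to 33.4% in the other 4 pMCAO libraries. In sham replicate 5 the members took 6.07% of the counts, against 4.94% to 5.35% in the other sham libraries.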

How the results depend on the processing

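All 7 members tested kept a log2 fold change below 0 under every alternative run. miR-30a-5p kept its call in all 11 fits without 1 library (-0.49 to -0.41) and lost it on library totals alone (-0.29, adjusted p = 0.0522), a scaling that moved the median of all miRNAs to 0.18 and the calls to 43 higher and 1 lower. miR-30c-5p was called by DESeq2 (-0.53), by the robust fit (-0.51) and without a filter (-0.54), was not with upper-quartile scaling (-0.50, adjusted p = 0.116) or library totals (-0.34), and ranged from -0.56 to -0.42 without single libraries, called in none. miR-30d-5p lost its call with upper-quartile scaling (-0.37), library totals (-0.22), no filter (-0.42), at least 10 counts in every library (-0.35), thinning (-0.36) and the replicate block (-0.42), and ranged from -0.44 to -0.30 without single libraries. miR-30b-5p, miR-30e-5p and the passenger arms were called under none at the 0.05 threshold. On library totals miR-30b-5p was at -0.26, miR-30a-3p at -0.12 and miR-30e-3p at -0.22, and without pMCAO replicate 5 the latter arms were at -0.14 and -0.24. Members called numbered 2 of 7 tested. They numbered 1 under upper-quartile scaling, 10 counts in every library, thinning or the replicate block, and 0 on library totals. They numbered 3 with DESeq2 (of 8 tested) or the robust fit, 4 at an adjusted p under 0.1, and 1 to 2 without single libraries. All calls numbered 34 of 479, with 18 of 406 at 10 counts in every library (15 higher, 3 lower) and 19 of 425 after thinning (16 and 3). DESeq2 called 42 of 602 (26 and 16), and the robust fit 36 of 479 (22 and 14). At 0.1 all calls numbered 57 of 479 (32 and 25), and without single libraries 16 (without sham replicate 3) to 36. The split was 23 higher and 4 lower of 479 with upper-quartile scaling, and 25 and 8 of 1267 without a filter. The replicate block gave 22 of 479 (19 higher, 3 lower). Same-numbered libraries correlated at -0.0768 to 0.228, with 3 of 5 above 0.1, and 1 of 5 pMCAO libraries correlated best with its own number. Correlations this weak cannot exclude pairing, and the main fit did not use the numbers as pairs. Arm ratios gave 0 calls throughout. The miR-30a ratio difference ran from -0.37 to -0.04 and the miR-30e difference from -0.0074 to 0.28 without single libraries, the lowest without pMCAO replicate 5. The difference in the members' share of counts, -0.844 percentage points, was -0.956 to -0.692 without single libraries, -1.17 without miR-124-3p, and -2.47 without the 10 most abundant other miRNAs, where the shares themselves are larger (12.1% and 9.61%). The cause of the other changes was not tested.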
